A study of Mus musculus with 10 samples.

Results

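Microglia are the resident macrophages of the brain, and the genes described here are 31 genes that mark them at rest or when they are activated. The members were taken by symbol, as the transcript clusters of a Clariom S Mouse array that carry 1 member's symbol and no other. All 31 were found, each in 1 cluster, out of 22206 clusters on the array. They fall into 3 groups by role, with 11 genes of homeostatic identity, 7 genes of the TREM2 adaptor, C1q and lysosome, and 13 genes associated with activation. Hippocampal RNA was measured in 5 male DU6 mice, an outbred line with polygenic obesity selected over many generations for high body mass, and in 5 male FztDU mice, the outbred line kept without that selection as the control. The labels give no treatment and no engineered allele for either line, and each array held the hippocampi of 1 mouse. The labels put the mice at 21 to 22 weeks of age, and the sources differ on the age. Because the mice are outbred, mice of 1 line differ from each other genetically, and the lines differ at many loci. The values are log2 values normalized between arrays, and a difference is the mean of DU6 minus the mean of FztDU on that log2 scale. Levels of different genes come from different probes and were not compared gene by gene. Where levels are summed over a list, or clusters ranked by mean level, the values also depend on the probes.

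Homeostatic microglia sense their surroundings through receptors such as CX3CR1, P2RY12 and CSF1R, and depend on signalling through CSF1R to survive. TREM2 is a lipid-sensing receptor that signals through the adaptor TYROBP. When microglia take up dying cells, myelin or amyloid, TREM2 signalling in mice is known to accompany a fall of homeostatic genes and a gain of genes of phagocytosis, lysosomes and lipid handling, among them Clec7a, Itgax, Gpnmb and Spp1. Microglia also make the C1q complex, the first component of the classical complement pathway, which tags synapses in the developing hippocampus. Several activation genes, such as the tetraspanins Cd9 and Cd63, the cathepsin Ctsb and the lipase Lpl, are used by other brain cells too.

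Some arrays stood apart in genes of neighbouring tissue. Genes of the cerebellum were high in DU6 replicate 2, where a list of 9 such genes averaged 3.96 above its level over all arrays. On every other array it lay between -0.62 and -0.12. A list of 12 genes of the choroid plexus, the epithelium of the ventricles, stood out in 3 arrays. Its mean was 2.15 in DU6 replicate 1, 2.06 in DU6 replicate 5 and 1.73 in FztDU replicate 5, and it lay between -1.25 and -0.09 elsewhere. The hippocampal neuron genes called expressed in both lines were 7 of 7, and their list mean was lowest in DU6 replicate 2, at -0.49, and between -0.06 and 0.22 elsewhere. One of them, C1ql2 of dentate granule cells, differed by -0.65, and of 8 genes of meningeal fibroblasts Lum differed by 1.07, and neither passed at an adjusted p in limma.

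PU.1, encoded by Spi1, is the transcription factor on which macrophages and microglia depend, and many microglial promoters are known to be bound by it. The letters GAGGAAGT, a core of its motif, were searched on both strands in the 250 bases before each RefSeq start (GRCm38.p6). A promoter was found for 24 members. The letters occurred in 2 of these, C1qc and Spp1 (8.33%), and in 755 of 27025 genes (2.79%), and a match is a description of the letters only. The windows of C1qc and Spp1 are shown because they hold the letters, and those of Itgam and Gpnmb because these genes had the lowest differences of their groups. The window of C1qb, the gene with the lowest difference in the remaining group, did not hold the letters and is not shown. Capitals mark the letters searched, or their reverse complement ACTTCCTC. The bases of C1qc that overlap the array's own gene model are left off.
C1qc, chr4:136893066-136893164, minus strand: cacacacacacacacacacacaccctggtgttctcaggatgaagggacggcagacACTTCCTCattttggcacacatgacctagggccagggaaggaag
Spp1, chr5:104434861-104435110, plus strand: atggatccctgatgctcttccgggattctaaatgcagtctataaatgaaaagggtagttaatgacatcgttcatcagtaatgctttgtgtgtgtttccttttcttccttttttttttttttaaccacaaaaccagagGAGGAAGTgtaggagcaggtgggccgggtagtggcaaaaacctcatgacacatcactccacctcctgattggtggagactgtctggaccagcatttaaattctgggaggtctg
Itgam, chr7:128062390-128062639, plus strand: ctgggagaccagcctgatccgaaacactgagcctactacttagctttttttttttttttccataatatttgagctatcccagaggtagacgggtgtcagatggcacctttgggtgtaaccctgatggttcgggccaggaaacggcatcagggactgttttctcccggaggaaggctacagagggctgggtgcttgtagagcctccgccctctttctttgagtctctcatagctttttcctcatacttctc
Gpnmb, chr6:49036268-49036517, plus strand: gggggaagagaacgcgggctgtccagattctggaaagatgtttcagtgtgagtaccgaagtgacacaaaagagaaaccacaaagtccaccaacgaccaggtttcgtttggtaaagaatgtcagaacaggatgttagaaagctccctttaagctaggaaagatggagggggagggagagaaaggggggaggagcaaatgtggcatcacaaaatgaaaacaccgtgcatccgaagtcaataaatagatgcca

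Between DU6 and FztDU mice, no member differed past the adjusted threshold. In limma, 0 of 31 members had an adjusted p under 0.05, where 0.162% of all clusters did, and 0.113% of all clusters also had an absolute fold change over 2. At an unadjusted p under 0.05, 1 member was higher in DU6 mice, Fcrls, where 2.7% of all clusters were, and 2 members were lower, Itgam and Gpnmb, where 3.17% of all clusters were. The smallest adjusted p of a member was 0.387. In none of the members were all DU6 arrays on 1 side of all FztDU arrays, which 1.22% of all clusters showed. By sign alone, 22 members had a higher mean in DU6 mice and 9 a lower one, where 50.5% of all clusters had a difference above 0. The median difference was 0.088 over the members and 0.002 over all clusters, and the median absolute difference was 0.178 over the members and 0.094 over all clusters. The members also varied more between mice of 1 line, with a median SD within the lines of 0.256, against 0.214 over all clusters. The 95% interval of the difference lay within 1 log2 unit of 0, a fold of 2, for 28 of the 31 members, and within 0.5 for 16. This holds on the scale of the deposited per-array values only. The paper's folds for Itgam and Cd68, from averages on another scale, are larger. In whole tissue, fewer microglia and less RNA of a gene in each microglial cell cannot be told apart. The deposited table called 29 of the 31 members expressed in both lines, whereas Cst7 and Clec7a were called expressed in DU6 mice and not in FztDU mice. The share of all clusters with such calls was not counted, so these calls are not read as a line difference. In limma Cst7 had an adjusted p of 0.980 and Clec7a of 0.861.

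**Figure D1:**
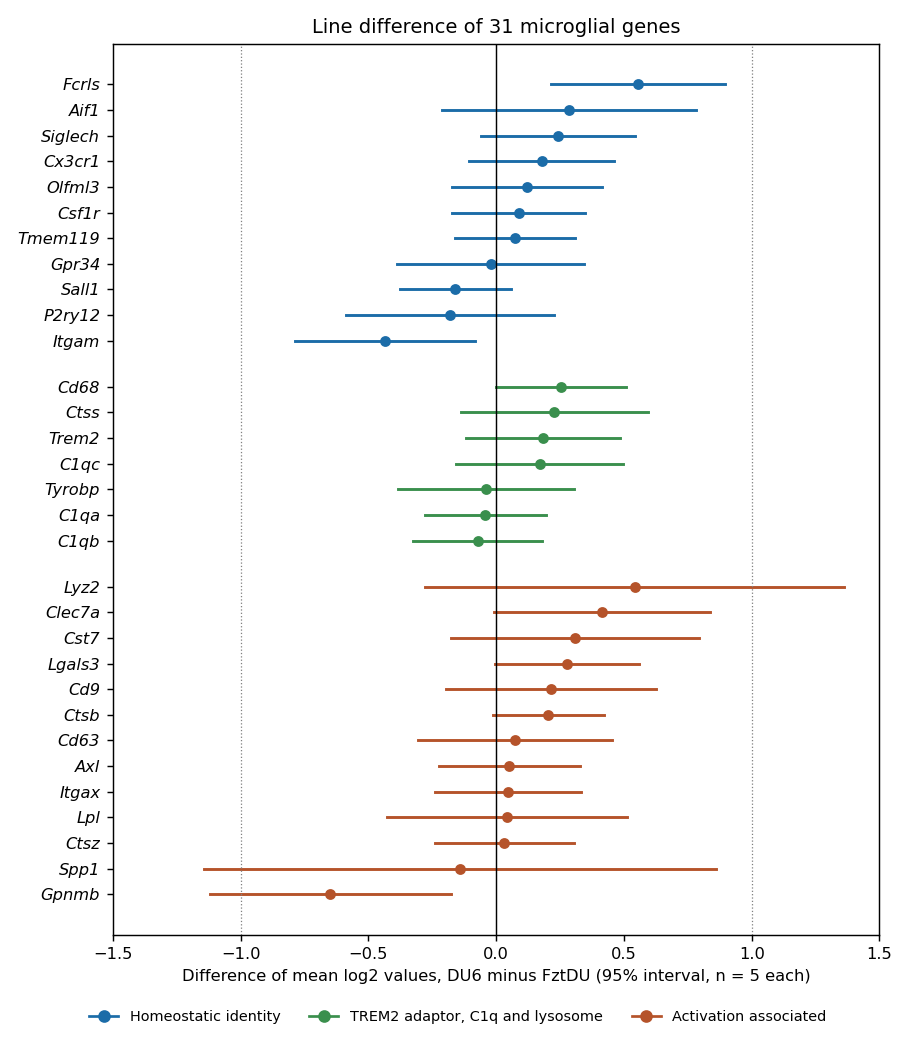
Difference of mean log2 values between DU6 and FztDU mice (x axis, DU6 minus FztDU) for each of the 31 members (rows, by group), with points for the difference and lines for its 95% interval from limma. The intervals of Fcrls, Itgam and Gpnmb do not reach 0, and those of Lyz2, Spp1 and Gpnmb extend beyond the dotted lines at 1 log2 unit.

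Of the 11 homeostatic genes, 7 had a higher and 4 a lower mean in DU6 mice, with a median difference of 0.088. Without the 3 arrays high in choroid plexus genes the median was 0.0167, with 6 higher and 5 lower. Fcrls, an Fc receptor-like scavenger receptor that marks microglia in mice, had log2 values of 7.84, 7.49, 7.86, 8.04 and 8.07 in DU6 replicates 1 to 5, against 7.41, 6.94, 7.47, 7.67 and 7.04 in FztDU replicates 1 to 5. Of the 5 DU6 arrays 4 lay above every FztDU array, and DU6 replicate 2 overlapped with FztDU replicate 4. The difference was 0.55 (95% interval from 0.21 to 0.89), a fold of 1.47, with an adjusted p of 0.387 from limma and an exact two-sided permutation p of 0.0159. The largest difference of Fcrls among the alternatives was 0.71, with the choroid plexus and cerebellum means as covariates. Without the 3 arrays high in choroid plexus genes it was 0.42, and its interval then reached from -0.01 to 0.86.

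Itgam encodes CD11b, the alpha chain of complement receptor 3, and differed in the opposite direction. Its values in DU6 mice were, from low to high, 5.76 in replicate 2, 6.46 in replicate 1, 6.53 in replicate 4, 6.59 in replicate 5 and 6.79 in replicate 3. In FztDU mice they were 6.77 in replicate 2, 6.81 in replicate 4, 6.82 in replicate 5 and 6.95 in both replicates 1 and 3. The FztDU arrays lay close together, 4 of the 5 DU6 arrays lay below all of them, and DU6 replicate 2 was far below its own line. The difference was -0.43 (95% interval from -0.79 to -0.08; adjusted p = 0.706 from limma). Without DU6 replicate 2, the array high in cerebellar genes, it was -0.27, with an adjusted p of 0.659, and with the choroid plexus and cerebellum means as covariates it was -0.20 (95% interval from -0.43 to 0.03). It was -0.21 without the 4 arrays high in choroid plexus or cerebellar genes (95% interval from -0.53 to 0.11), so that in both cases it no longer passed at an unadjusted p under 0.05.

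Aif1, which encodes the actin-bundling protein IBA1 used to stain microglia, spread widely in FztDU mice. It had 6.05, 5.82, 6.16, 6.25 and 6.42 in DU6 replicates 1 to 5, against 6.62, 5.37, 5.35, 6.25 and 5.69 in FztDU replicates 1 to 5. All DU6 values lay within the range of the FztDU values, and the difference was 0.28 (95% interval from -0.21 to 0.78). It was 0.16 without FztDU replicate 3 and 0.47 without FztDU replicate 1, the highest array (95% interval from 0.06 to 0.89; adjusted p = 0.889 from limma). P2ry12, the ADP receptor by which microglia extend their processes towards injury, had 9.34, 8.45, 9.16, 9.11 and 8.79 in DU6 replicates 1 to 5, against 9.70, 8.84, 9.10, 9.06 and 9.05 in FztDU replicates 1 to 5. Its lowest value was in DU6 replicate 2 and its highest in FztDU replicate 1, and the difference of -0.18 had an interval from -0.59 to 0.23. Tmem119, a membrane protein that parts microglia from blood-derived macrophages, had 6.92, 6.88, 7.08, 7.21 and 7.22 in DU6 replicates 1 to 5, against 6.90, 7.03, 7.09, 7.14 and 6.78 in FztDU replicates 1 to 5. The lines overlapped over most of their range, with a difference of 0.07 (95% interval from -0.16 to 0.31).

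The other 6 homeostatic genes differed by -0.16 to 0.24. Siglech, a sialic acid-binding lectin, had a difference of 0.24 and lay above all FztDU arrays in 4 of 5 DU6 arrays, while DU6 replicate 2, at 5.70, lay below all of them. Without that array its difference was 0.37 (adjusted p = 0.288 from limma). Cx3cr1, the fractalkine receptor, differed by 0.18, Olfml3, a secreted glycoprotein, by 0.12, and Csf1r, the receptor for the growth factors CSF1 and IL34, by 0.09. Gpr34, a lysophosphatidylserine receptor, differed by -0.02, a direction that turned without DU6 replicate 2 or FztDU replicate 1, and Sall1, a transcription factor of microglial identity, by -0.16. The direction of Csf1r also turned, without the 3 arrays high in choroid plexus genes.

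**Figure D2:**
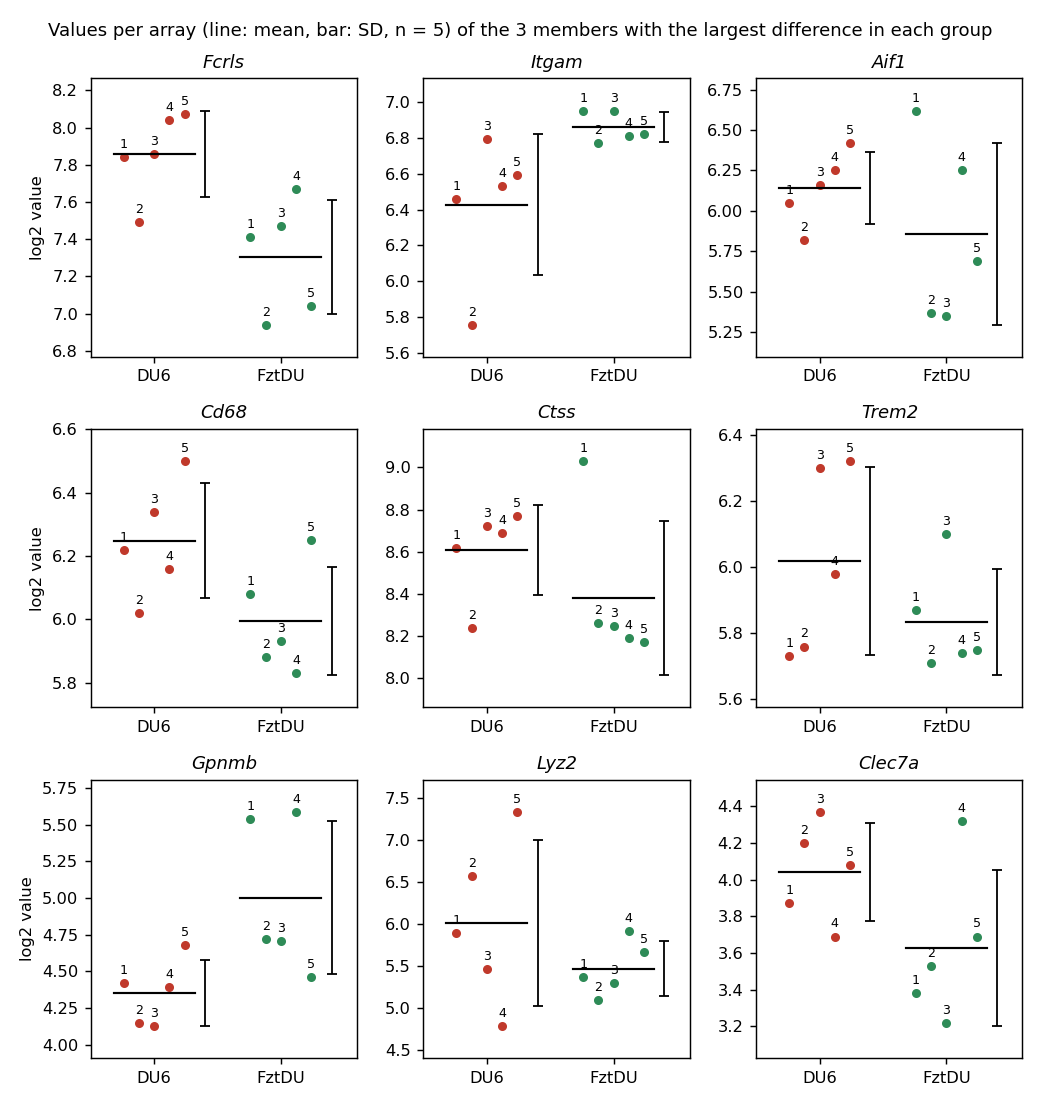
Log2 values (y axis) on each array of the 5 DU6 mice and the 5 FztDU mice, numbered by replicate, for the 3 members with the largest absolute difference in each group, with the mean as a line and the SD as a bar. In Itgam 4 of 5 DU6 arrays lie below all FztDU arrays and in Fcrls 4 of 5 lie above, and in no panel do the lines separate fully.

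Of the 7 genes of the TREM2 adaptor, C1q and lysosome, 4 had a higher and 3 a lower mean in DU6 mice, with a median difference of 0.17 and intervals that all lay within 1 log2 unit of 0. The median was 0.0883 without the 3 arrays high in choroid plexus genes. Cd68, a lysosomal membrane protein of phagocytes, had 6.02 in DU6 replicate 2, 6.16 in replicate 4, 6.22 in replicate 1, 6.34 in replicate 3 and 6.50 in replicate 5. In FztDU mice it had 5.83 in replicate 4, 5.88 in replicate 2, 5.93 in replicate 3, 6.08 in replicate 1 and 6.25 in replicate 5. All 5 DU6 arrays lay above the FztDU mean and 2 above all FztDU arrays, and the highest value of each line was in an array high in choroid plexus genes. The difference was 0.25 (95% interval from -0.0001 to 0.51; adjusted p = 0.852 from limma), and it was 0.24 without the 3 arrays high in choroid plexus genes. At this border, Cd68 passed at an unadjusted p under 0.05 in 9 of the 20 alternative fits. Ctss, the protease cathepsin S, had 8.62, 8.24, 8.72, 8.69 and 8.77 in DU6 replicates 1 to 5, against 9.03, 8.26, 8.25, 8.19 and 8.17 in FztDU replicates 1 to 5. Apart from DU6 replicate 2 and FztDU replicate 1 the DU6 arrays lay above the FztDU arrays, and over all arrays the difference was 0.23 (95% interval from -0.14 to 0.60). Without FztDU replicate 1 it was 0.39 (95% interval from 0.13 to 0.65; adjusted p = 0.587 from limma).

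Trem2 itself had 5.73, 5.76, 6.30, 5.98 and 6.32 in DU6 replicates 1 to 5, against 5.87, 5.71, 6.10, 5.74 and 5.75 in FztDU replicates 1 to 5. DU6 replicates 3 and 5 lay above all FztDU arrays and the other DU6 arrays lay among them, with a difference of 0.18 (95% interval from -0.12 to 0.49). Its adaptor Tyrobp differed by -0.04 (95% interval from -0.38 to 0.30). C1qb, a chain of the C1q complex, had 6.55, 6.41, 6.52, 6.60 and 6.77 in DU6 replicates 1 to 5, against 6.97, 6.56, 6.40, 6.63 and 6.65 in FztDU replicates 1 to 5. C1qc, the chain encoded next to it on chromosome 4, had 5.91, 5.81, 6.22, 5.74 and 6.19 in DU6 replicates 1 to 5, against 6.12, 5.74, 5.42, 6.06 and 5.68 in FztDU replicates 1 to 5. The lines overlapped in both chains, with differences of -0.07 for C1qb, 0.17 for C1qc and -0.04 for the third chain, C1qa.

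Of the 13 activation genes, 11 had a higher and 2 a lower mean in DU6 mice, with a median difference of 0.074, and the 2 lower ones were Gpnmb and Spp1. Gpnmb, a glycoprotein of lipid-laden phagocytes, had 4.42, 4.15, 4.13, 4.39 and 4.68 in DU6 replicates 1 to 5, against 5.54, 4.72, 4.71, 5.59 and 4.46 in FztDU replicates 1 to 5. In 4 of 5 DU6 arrays it lay below every FztDU array, and FztDU replicates 1 and 4 were far above the rest. The difference was -0.65 (95% interval from -1.12 to -0.18), a fold of 1.57 lower in DU6 mice, with an adjusted p of 0.619 from limma and an exact two-sided permutation p of 0.0159. It was -0.92 without the 3 arrays high in choroid plexus genes, and ran from -0.79 to -0.50 when 1 array at a time was left out. With the choroid plexus and cerebellum means as covariates it was -0.57, with an interval from -1.14 to 0.01.

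Lyz2, the lysozyme of myeloid cells, varied widely among DU6 mice. It had 5.90, 6.57, 5.47, 4.79 and 7.34 in DU6 replicates 1 to 5, against 5.37, 5.10, 5.30, 5.92 and 5.67 in FztDU replicates 1 to 5. DU6 replicates 2 and 5 lay above all FztDU arrays and DU6 replicate 4 below all of them, and the difference of 0.54 had an interval from -0.28 to 1.36. Without the arrays high in choroid plexus or cerebellar genes, which include both high DU6 arrays, the difference was -0.29. With single arrays left out it was lowest without DU6 replicate 5, at 0.21, and highest without DU6 replicate 4, at 0.85 (95% interval from 0.15 to 1.55; adjusted p = 0.788 from limma). Clec7a, the beta-glucan receptor dectin-1, had 3.87, 4.20, 4.37, 3.69 and 4.08 in DU6 replicates 1 to 5, against 3.38, 3.53, 3.22, 4.32 and 3.69 in FztDU replicates 1 to 5. Only FztDU replicate 4 reached the upper DU6 values, and the difference was 0.41 (95% interval from -0.01 to 0.84; adjusted p = 0.861 from limma), or 0.59 (adjusted p = 0.291) without that array. It was 0.31 without FztDU replicate 3 and 0.33 without DU6 replicate 3, and the FztDU level was not called expressed.

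Spp1, the secreted phosphoprotein osteopontin, had the widest range of DU6 values among the members, with 4.35, 6.55, 4.11, 3.41 and 4.17 in DU6 replicates 1 to 5, against 4.65, 5.12, 3.97, 4.57 and 4.99 in FztDU replicates 1 to 5. The highest value lay in DU6 replicate 2, the array high in cerebellar genes. The difference was -0.14 (95% interval from -1.14 to 0.86) over all arrays and -0.65 (adjusted p = 0.632 from limma) without DU6 replicate 2. With the choroid plexus and cerebellum means as covariates it was -0.89 (95% interval from -1.40 to -0.38; adjusted p = 0.356). Cst7, a cystatin that inhibits lysosomal cathepsins, differed by 0.31, against an FztDU level not called expressed, and by 0.13 without FztDU replicate 5. Lgals3, the galectin of damaged lysosomes, differed by 0.28, and the tetraspanin Cd9 by 0.21, or by 0.06 without DU6 replicate 1. Ctsb, the protease cathepsin B, differed by 0.20, with an exact two-sided permutation p of 0.0397 and an adjusted p of 0.889 from limma, and 3 of 5 DU6 arrays lay above all FztDU arrays. The other 5 activation genes differed by 0.03 to 0.07, namely Cd63, the receptor tyrosine kinase Axl, the integrin chain Itgax (CD11c), the lipase Lpl and the cathepsin Ctsz, and each turned direction under at least 1 alternative. The tetraspanin Cd63 was highest in the 3 arrays high in choroid plexus genes, at 8.39 in DU6 replicate 1, 8.40 in DU6 replicate 5 and 8.27 in FztDU replicate 5, against 7.58 to 8.12 in the other 7 arrays, and its difference was -0.09 without those 3 arrays.

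**Figure D3:**
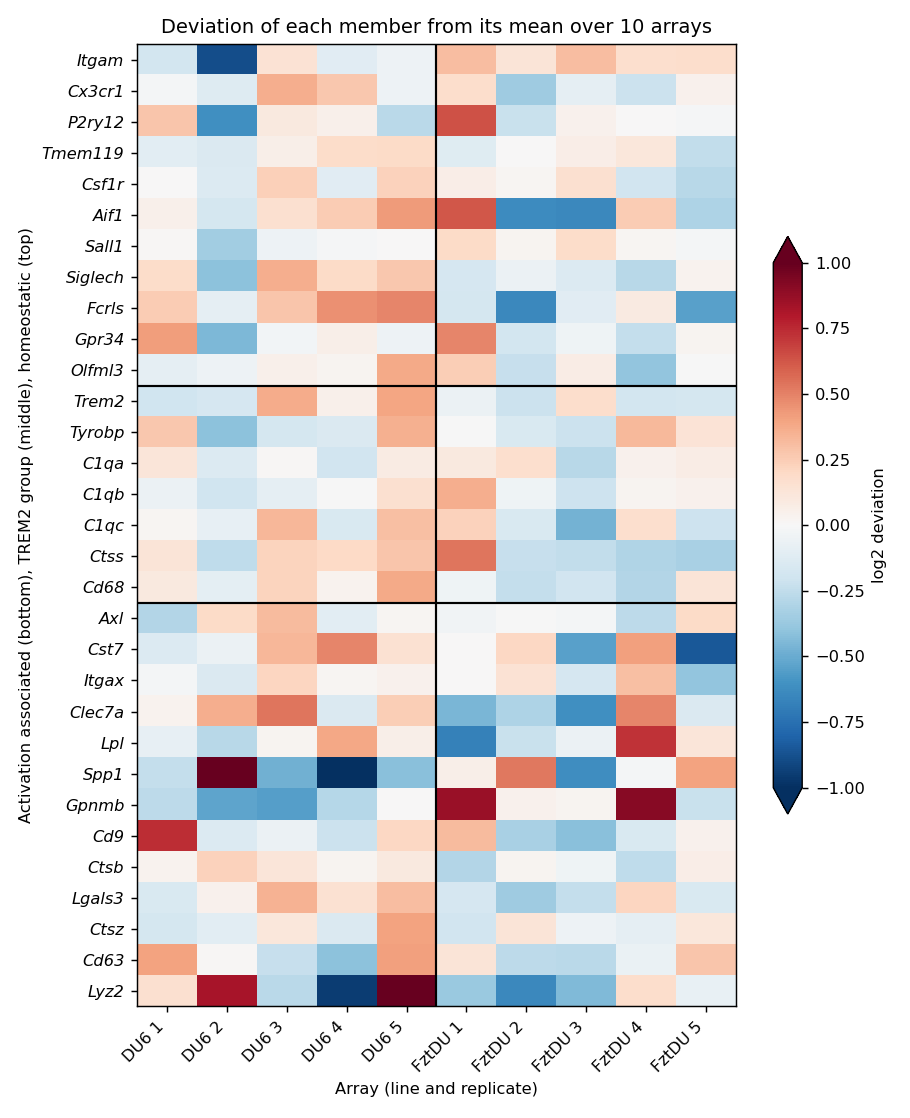
Deviation of the log2 value of each member (rows) from its mean over all 10 arrays (columns, the 5 DU6 mice left of the 5 FztDU mice), with red above and blue below the mean and the colour scale ending at 1 log2 unit. The column of DU6 replicate 2 is below the mean in all 11 homeostatic genes, and Spp1 and Lyz2 hold the widest spread.

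Other genes of the same cells were taken from lists set up with earlier results of these data known. Of 30 further microglial genes, 17 had a higher and 13 a lower mean in DU6 mice, with a median difference of 0.022. At an unadjusted p under 0.05, 1 of them was higher, Spi1, where 2.7% of all clusters were, and 2 were lower, Selplg and Ly86, where 3.17% were, and none passed at an adjusted p. Spi1, which encodes PU.1, differed by 0.36 (adjusted p = 0.518 from limma), with 7.15 to 7.64 in DU6 mice against 6.87 to 7.16 in FztDU mice, so that only the lowest DU6 array overlapped. Selplg, the selectin ligand PSGL-1, differed by -0.33 and Ly86, the MD-1 partner of RP105, by -0.45. Without DU6 replicate 2 these were -0.24 and -0.35, and Ly86 then no longer passed at an unadjusted p. Of 20 further activation genes, 14 had a higher and 6 a lower mean, with a median of 0.176, and Ccl3, a chemokine, was the only one past an unadjusted p under 0.05, at 0.35 (adjusted p = 0.643 from limma). Of 13 ligands and partner receptors of microglial signalling, among them Cx3cl1, Csf1, Il34, Tgfb1 and Cd200, 5 were higher and 8 lower, with differences from -0.19 to 0.26, and none passed at an unadjusted p.

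Genes of other macrophages and of blood myeloid cells were measured beside the members, because Lyz2, Itgam and Itgax are not particular to microglia. Of 10 genes of border-associated macrophages, 8 were called expressed in both lines, 0 passed at an unadjusted p, and their summed linear level was 138.0 to 200.3 in DU6 mice against 150.1 to 187.4 in FztDU mice. Of 11 blood myeloid genes, 6 were called expressed in both lines, 10 had a higher mean in DU6 mice and 5 were higher at an unadjusted p under 0.05, namely S100a9, Ngp, Retnlg, Ly6c2 and Plac8, where 2.7% of all clusters were. Without DU6 replicate 2 only Retnlg passed, and none did over the 7 arrays left without the 3 high in choroid plexus genes. In those 7 arrays the differences were of similar size, with a list median of 0.31, 7 genes higher and 3 lower, and Retnlg at 0.88. Without all 4 of these arrays 5 of the 11 genes had a higher and 6 a lower mean, with a median of -0.025 against 0.33 over all arrays. Their summed level was 137.5 to 270.8 in DU6 mice against 132.0 to 155.5 in FztDU mice. The neutrophil gene Retnlg, which was not called expressed in FztDU mice, had 2.71 to 4.76 in DU6 mice against 2.28 to 2.93 in FztDU mice (adjusted p = 0.557 from limma). The list mean was highest in DU6 replicate 2, at 0.76, and DU6 replicate 5, at 0.38, the same arrays in which Lyz2 was highest. Ccr2, the receptor of blood monocytes, was called expressed in neither line. The part of blood cells in the values of Lyz2 was not tested.

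**Figure D4:**
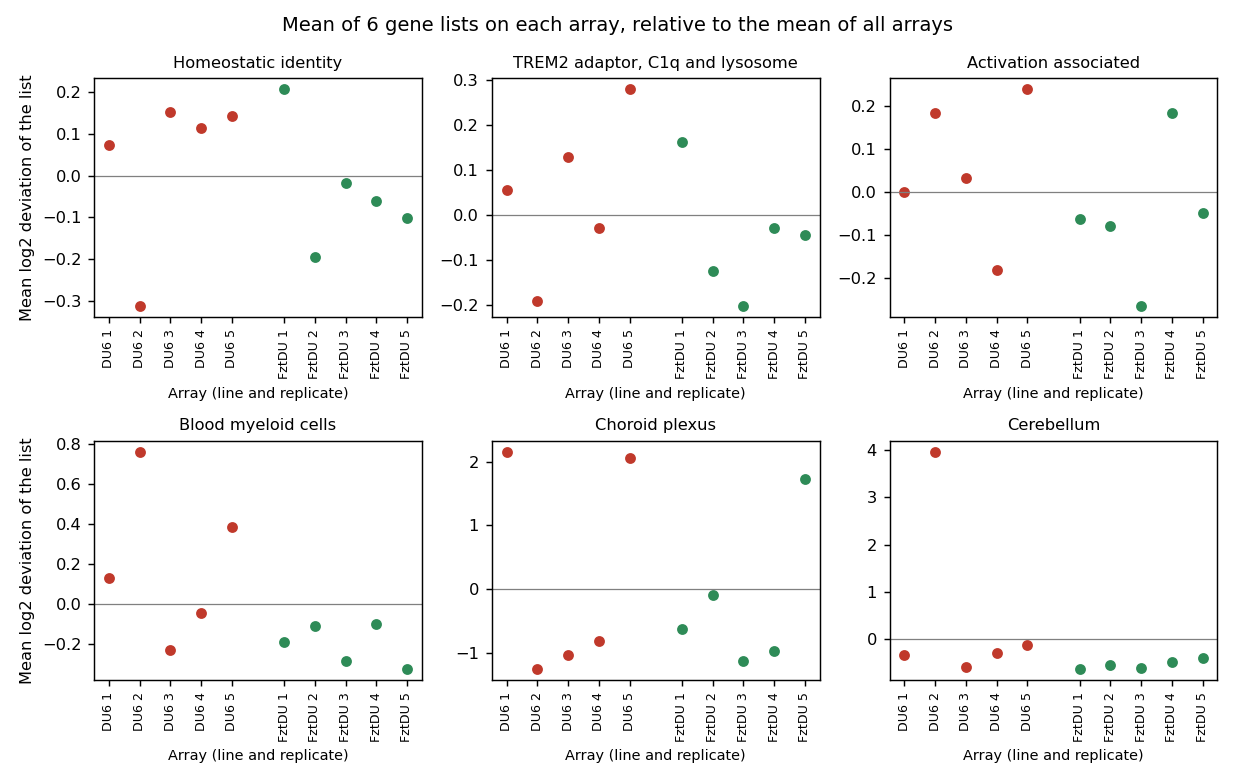
Mean deviation of 6 gene lists on each array (y axis, log2 scale, relative to the mean of all arrays), with DU6 arrays in red left of FztDU arrays in green. The homeostatic list is lowest in DU6 replicate 2, at -0.31, and highest in FztDU replicate 1, at 0.21, the blood myeloid list is highest in DU6 replicate 2, and the choroid plexus and cerebellum lists each stand out in single arrays.

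Within each line the homeostatic genes moved together across arrays, and much of this came from single arrays. DU6 replicate 2 held the lowest DU6 value in 10 of the 11 homeostatic genes and in 4 of the 7 genes of the TREM2 group, but in 2 of the 13 activation genes. FztDU replicate 1 held the highest FztDU value in 7 of the 11 homeostatic genes. To describe the covariation, the deviations of each gene from its line means were correlated between members over the 10 arrays, and since pairs share genes and arrays these values carry no test. The median r was 0.45 over the 55 homeostatic pairs, of which 52 were above 0, and 0.48 over the 21 pairs of the TREM2 group, of which 20 were above 0. It was 0.10 over the 78 activation pairs, -0.01 between homeostatic and activation genes, and 0.00 over all pairs of clusters on the array. Without DU6 replicate 2 the homeostatic median was 0.22, without FztDU replicate 1 it was 0.38, and without both arrays it was -0.0022, with 27 of 55 pairs above 0. Both arrays hold extreme values of these same genes, so leaving them out can lower r by that choice alone. The fall therefore cannot show where the covariation came from. In the TREM2 group the median was 0.26 without both arrays, with 16 of 21 pairs above 0. Without the 3 arrays high in choroid plexus genes the medians were 0.58 for the homeostatic genes and 0.42 for the TREM2 group.

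Some single pairs had a lower r without both arrays, and others had much the same r. Over the 465 member pairs r ran from -0.90 to 0.92, and the pairs named here include both of these ends. Itgam and Sall1 had an r of 0.84 over all arrays and 0.17 without both arrays, and Itgam and Siglech had 0.89 and 0.40. P2ry12 and Ctss had 0.79 over all arrays and -0.80 without both. By contrast, P2ry12 and Gpr34, a pair of receptors encoded on chromosomes 3 and X, had 0.92 over all arrays and 0.68 without both. Cst7 and Itgax had 0.91 in all arrays and 0.92 without both, Cd9 and Cd63 had 0.82 and 0.87, and Gpnmb and Ctsb had -0.90 and -0.88. The arrays left out are extreme in the homeostatic genes, not in these pairs. FztDU replicate 4, with the highest Gpnmb value, 5.59, stayed in, and r without it was not computed for this pair. Cst7 and Itgax are among the lowest 25% of clusters by mean level, and Cst7 was not called expressed in FztDU mice. The part of background signal in their r was not tested. Spp1 ran against the homeostatic genes, with r of -0.88 to Itgam and -0.87 to Sall1 over all arrays, and -0.30 and -0.51 without DU6 replicate 2, its highest array.

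For 14 pairs of genes taken as subunits of 1 complex, a receptor and its adaptor, or markers of 1 microglial state, r was computed on the log2 values themselves, with the difference between the lines left in. These r were tested over the 10 arrays with permutation tests, and none passed after adjustment over the 14 pairs. The highest of these r was that of C1qb and C1qc, 0.56 (permutation p = 0.0899, adjusted p = 0.368; Spearman's rho 0.33, permutation p = 0.353, adjusted p = 0.790), and it was 0.31 without FztDU replicate 1 and DU6 replicate 5. Within the lines it was 0.44 in DU6 mice and 0.82 in FztDU mice. C1qa and C1qb had an r of 0.54. C1qa and C1qc had 0.55, and -0.02 without FztDU replicate 3 and DU6 replicate 4. Trem2 and its adaptor Tyrobp had an r of -0.01 (permutation p = 0.983). The lowest of these r was that of P2ry12 and Tmem119, -0.12 (permutation p = 0.743, adjusted p = 0.883; Spearman's rho -0.03, permutation p = 0.946), and it was -0.34 without DU6 replicate 2 and FztDU replicate 1. On deviations from the line means the same pairs ranked otherwise, with r of 0.70 for both P2ry12 and Cx3cr1 and C1qb and C1qc, -0.05 for P2ry12 and Tmem119, and -0.23, the lowest, for Spp1 and Gpnmb.

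**Figure D5:**
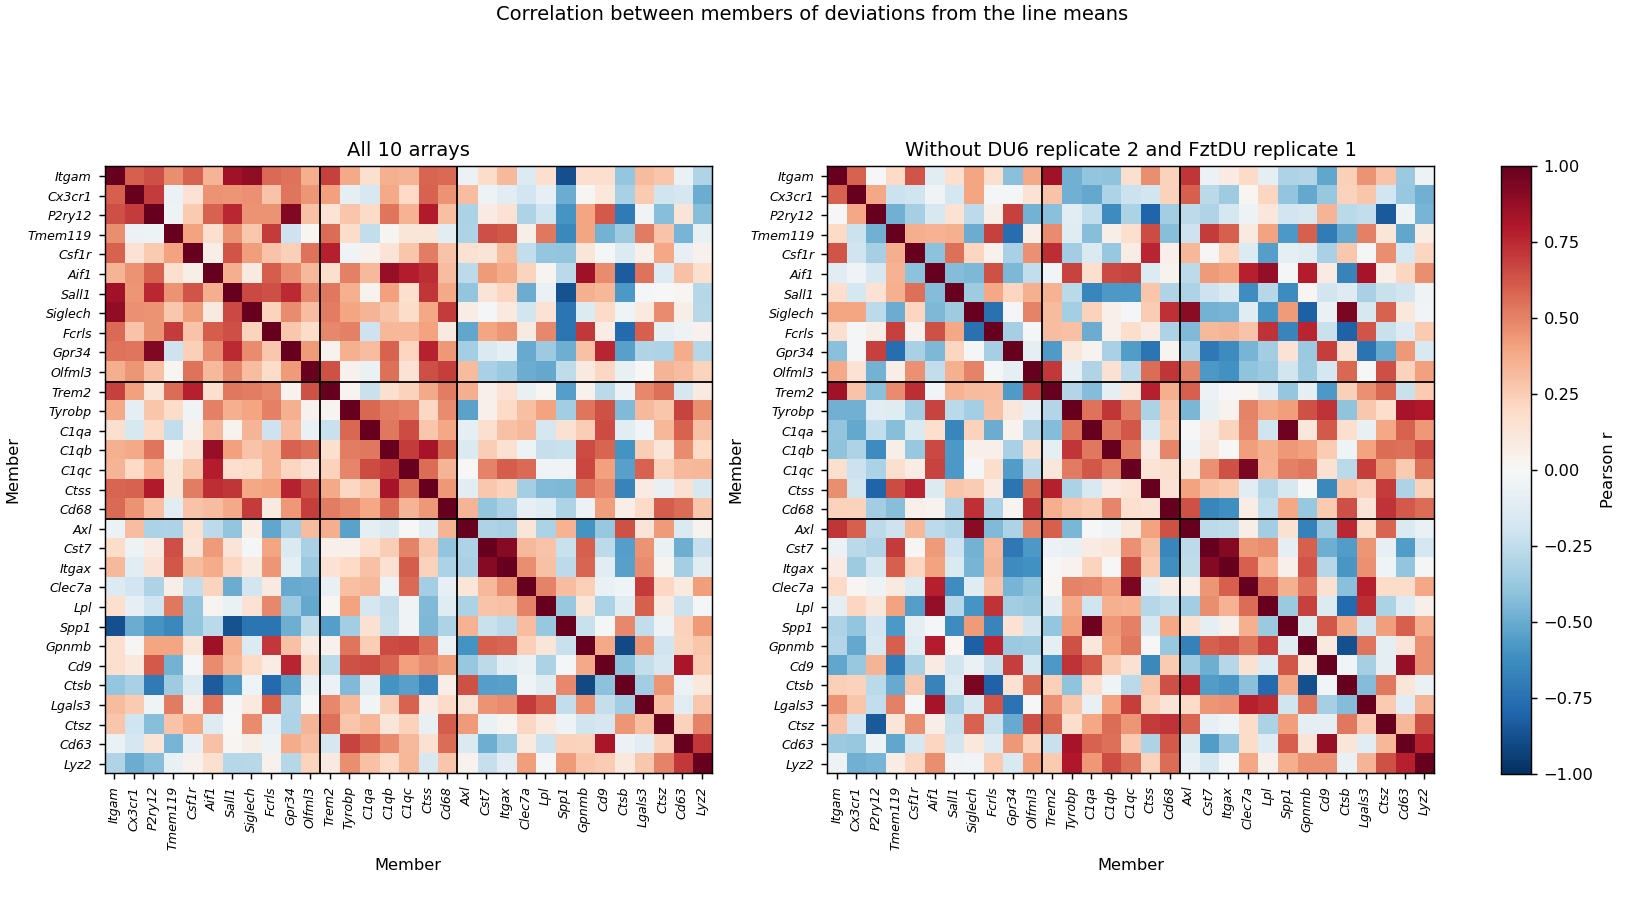
Pearson r between members (rows and columns, in the order of the groups, parted by black lines) of deviations from the line means, over all 10 arrays on the left and over the 8 arrays without DU6 replicate 2 and FztDU replicate 1 on the right. The block of homeostatic genes at the top left is mostly red on the left, with a median of 0.45, and mixed on the right, with a median of -0.0022.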

How the data were processed

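Total hippocampal RNA of 5 DU6 and 5 FztDU mice, labelled as biological replicates, was hybridised to 10 Clariom S Mouse arrays. Per the methods, the authors normalized the intensities by SST-RMA in the Transcriptome Analysis Console with annotation on mm10, and deposited log2 values per cluster and array. These were used as deposited, with no filter. For Itgam and Cd68 the paper's supplement prints the same per-array values beside line averages that lie above all of them. The averages and the per-array values are thus not on the same scale, and the reason was not tested. The authors also deposited a table with a call of expression per line, used here, and with averages, SDs, fold changes, p and FDR, not used.

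Lines were compared over all 22206 clusters with limma 3.58.1 in R 4.3.3 (lmFit, eBayes, two-sided, Benjamini-Hochberg), with calls at an FDR of 0.05 where the absolute fold exceeded 2, and for members by exact two-sided permutation over 252 splits (smallest possible p 0.00794). The fit was tested on simulated data. Correlations used 100000 permutations. Python 3.11.15 and matplotlib 3.10.9 drew the figures. The number of arrays limits the precision. The p-values of line differences set each difference against the spread between these mice, and those of correlations test association over the arrays. They cover these lines only and do not test selection for body mass.

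The members, gene lists, pairs and alternatives were chosen with earlier results of these data known. All members are named. Values per array are given for members past an unadjusted p under 0.05, for the 3 largest differences in each group and for the pairs with the highest and lowest r, and further for Spp1 and Cd63, chosen after their values were seen. Of the other lists, genes past an unadjusted p under 0.05 are named. Alternatives were quantile normalization, centring on array medians, leaving out low clusters, array weights, eBayes with trend and robust, Tukey biweight averages, the replicate block, arrays left out and tissue means as covariates. The correlations without arrays were added after seeing the data. So were the results of the blood myeloid, further microglial and further activation lists under the alternatives.

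Sequences are RefSeq promoters on GRCm38.p6.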

Additional observations from a re-analysis of the deposited data

Results flagged for a closer look

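In 5 of 62 sets of 5 arrays (31 members in each line), 1 array lay far from the other 4 relative to the range of the line, where chance would flag about 1 set in 20. In DU6 mice all 3 lay in replicate 2, the array high in cerebellar genes. Sall1 was at 5.13 there, against 5.43 to 5.49 in the other DU6 arrays. Siglech was at 5.70, against 6.29 to 6.47. Ctss was at 8.24, against 8.62 to 8.77. In FztDU mice Ctss was at 9.03 in replicate 1, against 8.17 to 8.26 in the other FztDU arrays, and C1qa was at 5.90 in replicate 3, against 6.22 to 6.34. The cause was not tested.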

How the results depend on the processing

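No member passed at an adjusted p under any alternative run in limma. The members past an unadjusted p under 0.05 and higher in DU6 mice numbered 1 in the fit reported, 2 after quantile normalization (2.75% of all clusters), with the lowest 25% of clusters left out (2.82%), with trend and robust (2.57%), or with the replicate block (2.92%), which adds Cd68, 3 with the lowest 50% left out (2.76%), 5 with array weights (3.13%) or with the choroid plexus and cerebellum means as covariates (3.31%), 4 without the 4 arrays high in choroid plexus or cerebellar genes (2.37%), and 0 without the 3 high in choroid plexus genes (2.41%). They ran from 1 to 3 with 1 array left out at a time (2.24% to 3.32%). Those lower numbered 2, or 1 with the lowest 50% left out (4.34%), which leaves out Gpnmb, or with the covariates (2.9%), where Spp1 alone passed and Itgam and Gpnmb did not, and 2 to 3 with 1 array left out (2.73% to 3.58%). Without the 4 arrays the 2 were Spp1 and Gpnmb (2.45%). Of all clusters 25 were called, 16 with the lowest 50% left out and 23 to 28 with 1 array left out.

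The median differences of the groups stayed above 0 under every alternative. Without the 3 arrays high in choroid plexus genes they were 0.0167 for homeostatic genes, 0.0883 for the TREM2 group and 0.11 for activation genes. With 1 array left out they ran from 0.03 to 0.14 for homeostatic genes, 0.07 to 0.21 for the TREM2 group and 0.05 to 0.19 for activation genes. Most differences that turned direction were small, that of Lyz2 (0.54) was not, and the cause was not tested. With the covariates P2ry12 was at 0.0111, Gpr34 at 0.0776 and Cd63 at -0.0891. Without the 3 arrays high in choroid plexus genes Csf1r was at -0.0183, Itgax at -0.0408, Spp1 at 0.11 and Cd63 at -0.0925. Without those and DU6 replicate 2, Gpr34 was at 0.0075, Cd63 at -0.20 and Lyz2 at -0.29. With array weights Gpr34 was at 0.0626 and Tyrobp at 0.0322, and with Tukey biweight averages Gpr34 was at 0.0628 and Ctsz at -0.10. With 1 array left out the range crossed 0 for Gpr34 (-0.13 to 0.10), Tyrobp (-0.13 to 0.058), C1qa (-0.12 to 0.0015), C1qb (-0.13 to 0.01), Axl (-0.021 to 0.13), Itgax (-0.0475 to 0.13), Lpl (-0.12 to 0.23), Spp1 (-0.65 to 0.14), Ctsz (-0.0645 to 0.0805) and Cd63 (-0.0195 to 0.19). The median r of the homeostatic pairs ran from -0.0022 to 0.38 without DU6 replicate 2, FztDU replicate 1 or both.

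The mice share only a replicate number: 3 of 5 same-numbered pairs had correlated deviations (r over 0.1; mean 0.10, against -0.03 for other numbers), and 5 of 10 arrays correlated best with their own number. With the replicate block 20 clusters were called. With 5 arrays against 5, the interval of the difference reached beyond 0.5 for 15 of the 31 members. Signal over background was not analysed here.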
